A study of Homo sapiens with 6 samples.

Results

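The protein genes of the large ribosomal subunit (60S) were examined in A549 cells, an established human line from a lung carcinoma, after knockdown of CEP20, a protein of the centrosome and its satellites. The set was drawn by gene symbol from a list of protein-coding 60S genes, so no measured value enters the rule, although the family was picked for description with earlier results of these data known. It holds 48 genes of the 60624 rows in the expression table, and all 48 were expressed well enough to be tested. Poly(A) RNA was sequenced from 3 libraries of cells that received siCEP20 and 3 of cells that received a control siRNA (siCTR), each for 3 days, and levels are given as TPM, the abundance of a transcript scaled for its length and for the total of the library. Both groups are the same cell line, and both were transfected. The series holds no untransfected library, so an effect of transfection itself was not measured. The treatment tag of the labels reads plasmid transfection, whereas their protocol names siRNA. Which of the study's siCEP20 sequences was used is not given in the sources used here, and the labels do not say whether the 3 libraries of a group came from separate cultures. The study's methods state in general that its results rest on independent experiments, without naming the sequencing libraries. The p-values below therefore measure the spread between these libraries, which may be technical.

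A ribosome is built from ribosomal RNA and a fixed set of proteins, and the 60S subunit joins amino acids into a chain and passes that chain out through its exit tunnel. Its proteins are made in the cytoplasm, carried into the nucleolus, fitted onto the ribosomal RNA and exported, so that they are needed in near equal numbers. Most of their mRNAs begin with a C followed by a run of pyrimidines, the terminal oligopyrimidine (TOP) tract, through which growth signals control their translation together. Many of the genes also carry small nucleolar RNAs in their introns and have left numerous processed pseudogenes in the genome.

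CEP20 itself was at 29.2, 30.5 and 35.1 TPM in the siCTR libraries and at 16.2, 15.3 and 17.3 TPM in the siCEP20 libraries, which left 51.4% of the control level (log2 fold change −0.92, limma adjusted p = 0.000205). The cells expressed 6 of 6 epithelial markers at a mean of 1 TPM or more (summed 7030 to 7330 TPM in siCTR and 8470 to 8710 TPM in siCEP20) but only 1 of 4 lung lineage markers, with NKX2-1 at 0.0149 TPM in siCTR and listed at 0 in siCEP20. Of the markers of other cell types, 1 of 6 fibroblast, 2 of 6 immune and 0 of 5 endothelial genes reached that level. The fibroblast sum, nearly all of it COL1A1, was 5.39 to 6.15 TPM in siCTR and 17.7 to 20.2 TPM in siCEP20, while DCN and COL1A2 were listed at 0 throughout. The immune sum was 24.5 to 34.6 TPM in siCTR and 35.3 to 55.1 TPM in siCEP20. Nearly all of it was CD68, at a mean of 18.9 TPM in siCTR and 33.8 TPM in siCEP20, and CD14, at 9.05 and 7.91 TPM. PTPRC was at 0.0061 TPM in siCTR and listed at 0 in siCEP20. The endothelial sums lay between 0.0287 and 0.437 TPM. Between 14429 and 14600 genes reached 1 TPM in the siCTR libraries and between 14851 and 14987 in the siCEP20 libraries. The part of these differences in the results below was not tested.

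The 60S transcripts were lower after CEP20 knockdown as a group but by very unequal amounts. Of the 48 genes, 42 were lower at an adjusted p under 0.05, 2 were higher and 4 did not pass; among all 14778 tested genes 13.2% were lower and 30.2% higher by the same rule. With the study's fold thresholds added (a fold change under 0.67 or over 1.5), 14 genes were called lower, where the share of all genes is 4.61%, and 0 were called higher, where the share is 11.2%. In 43 genes every siCEP20 library lay below every siCTR library and in 2 every one lay above, shares that are 17% and 38.4% of all tested genes. The median log2 fold change of the family was −0.43, against 0.13 over all tested genes, and its quartiles lay at −0.68 and −0.25. The median gene kept 73.9% of its control level. These values are log2 fold changes on the log2(TPM + 1) scale, and TPM is a share of the library: fewer 60S transcripts per cell and more of other transcripts cannot be told apart from these values. With median-of-ratios scaling, which moves the median of all tested genes from 0.13 to −0.01, 45 genes were lower and 0 higher, 25 of them past the fold threshold. Of all tested genes 21.8% were lower and 19.7% higher with that scaling, and 19.9% and 21.4% with quantile normalization. With quantile normalization 31 were lower and 4 higher, with 9 past the fold threshold, and 12 of the 42 were no longer called lower (RPL6, RPL8, RPL11, RPL12, RPL13A, RPL15, RPL19, RPL23A, RPL27, RPL35, RPL37A and RPLP2).

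**Figure D1:**
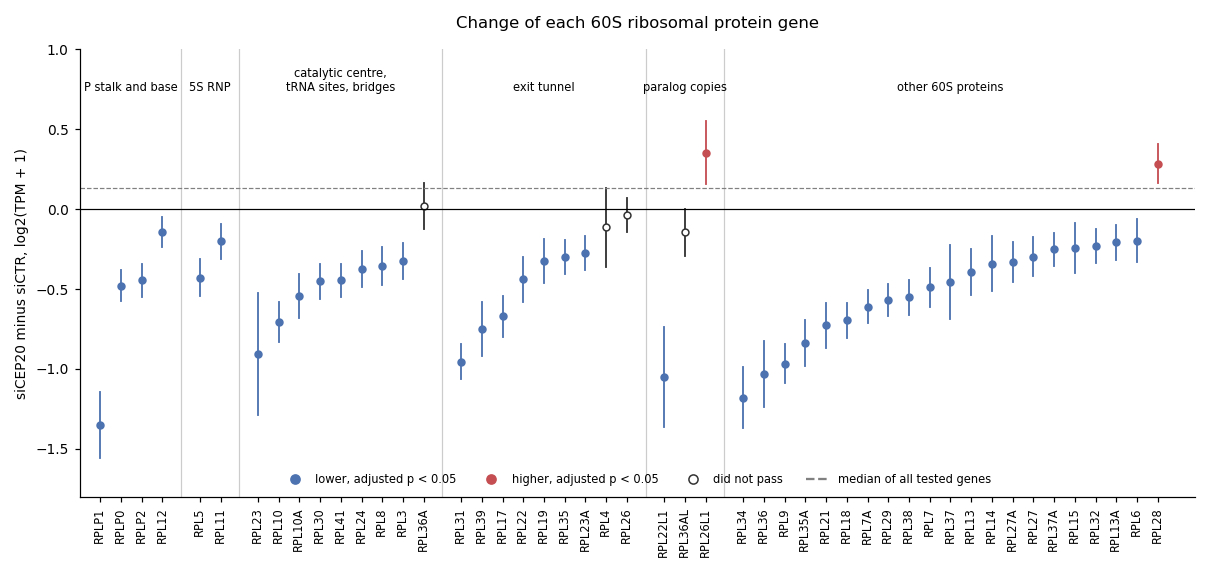
Change of each of the 48 genes of the 60S ribosomal proteins, as siCEP20 minus siCTR in log2(TPM + 1) with its 95% confidence interval from limma, grouped by the place of the protein in the subunit; the dashed line is the median of all tested genes at 0.13. The changes run from −1.35 for RPLP1 to 0.35 for RPL26L1, with filled blue points lower, filled red points higher and open points not past an adjusted p of 0.05.

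Summed over the family, the share of 60S transcripts in the total TPM was 9.55%, 9.27% and 9.23% for siCTR and 6.88%, 7.31% and 7.06% for siCEP20. The groups did not overlap, and the mean share was 2.26 points lower (9.35% ± 0.176 against 7.08% ± 0.215, SD, n = 3 each, two-sided exact permutation p = 0.1, the smallest that 3 against 3 libraries allow). The 33 genes of the small subunit (40S) made up 7.19%, 6.79% and 6.51% for siCTR and 4.76%, 4.98% and 4.86% for siCEP20. Among them 26 were lower and 1 was higher, with 16 past the fold threshold and a median log2 fold change of −0.64. The shares of all tested genes are 13.2% lower, 30.2% higher and 4.61% lower past the fold threshold. The log2 ratio of the summed 60S to the summed 40S transcripts was 0.41, 0.45 and 0.50 in siCTR and 0.53, 0.55 and 0.54 in siCEP20, higher by 0.09 with no overlap (exact permutation p = 0.1). That direction turned when the ratio was taken between the median member of each subunit: the difference was then −0.042, with overlapping groups (exact permutation p = 0.7). The median of the single gene changes, −0.43 for the 60S and −0.64 for the 40S genes, went in the direction of the sums. Because the measures disagreed, a shift in the balance between the subunits was not shown. Against the 49 genes of the mitochondrial large subunit, which builds the separate ribosome of that organelle, the log2 ratio was 4.36, 4.34 and 4.30 in siCTR and 4.20, 4.19 and 4.19 in siCEP20, lower by 0.14 (difference −0.14, exact permutation p = 0.1). The mitochondrial genes had a median log2 fold change of −0.17, with 21 of the 49 lower and 5 higher, against 13.2% and 30.2% of all tested genes.

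**Figure D2:**
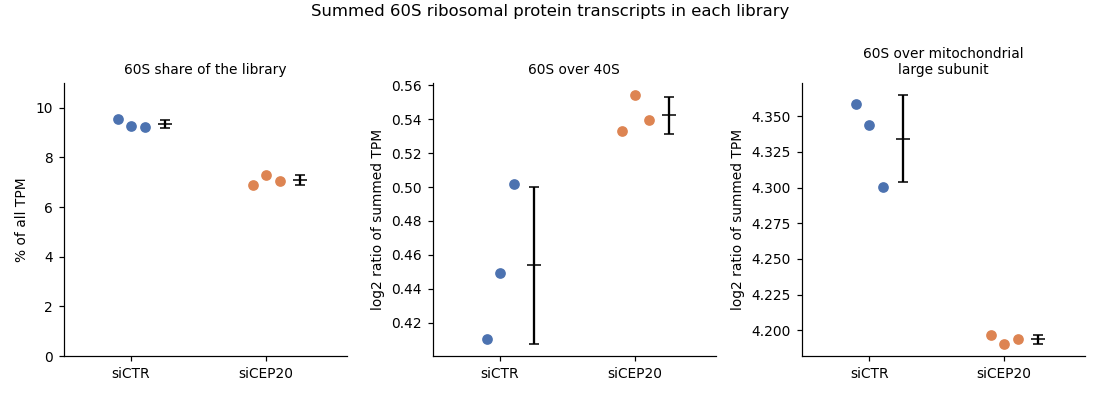
Summed transcripts of the 60S genes in each of the 6 libraries, as a percent of all TPM (left, axis from 0), as a log2 ratio to the 40S genes (middle) and as a log2 ratio to the mitochondrial large subunit genes (right); points are libraries and the bars give the mean ± SD of 3. The share lies at 9.23% to 9.55% in siCTR and 6.88% to 7.31% in siCEP20, while the ratio to 40S differs by only 0.09.

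The start of the transcript is shown for the genes at both ends of the change, since the TOP tract is the feature that most 60S mRNAs share. Each line gives 30 bases of RefSeq promoter sequence (GRCh38.p14), 15 before and 15 from the annotated first base, read 5′ to 3′ on the strand of the gene. Capitals mark a start tract, defined here as a C at the annotated first base followed by at least 4 further C or T bases, for as far as the run reaches in the window. RPL34 has a further annotated start, with its first base at chr4:108620629, which is without a tract and is not shown. The first 6 genes are those that fell most, and the last 4, with RPL26L1 at both of its annotated starts, are the 4 with the highest log2 fold change:
RPLP1, chr15:69452803-69452832, plus strand: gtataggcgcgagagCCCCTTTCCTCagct
RPL34, chr4:108620561-108620590, plus strand: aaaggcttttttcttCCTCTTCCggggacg
RPL22L1, chr3:170870181-170870210, minus strand: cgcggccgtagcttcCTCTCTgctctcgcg
RPL36, chr19:5690280-5690309, plus strand: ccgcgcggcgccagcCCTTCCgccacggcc
RPL9, chr4:39458908-39458937, minus strand: gtacgtaatgacgacagacgttctttcttt
RPL31, chr2:101002274-101002303, plus strand: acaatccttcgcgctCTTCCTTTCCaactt
RPL28, chr19:55385917-55385946, plus strand: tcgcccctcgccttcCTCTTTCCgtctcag
RPL26, chr17:8383179-8383208, minus strand: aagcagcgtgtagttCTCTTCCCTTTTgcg
RPL36A, chrX:101390996-101391025, plus strand: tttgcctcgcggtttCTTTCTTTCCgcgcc
RPL26L1, chr5:172958714-172958743, plus strand: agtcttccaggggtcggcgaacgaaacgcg
RPL26L1, chr5:172958865-172958894, plus strand: ggcggggcggcggccacaaacccgcaggca

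The tract stood at the start of genes from both ends of the range, and each end also held a gene without it. Of the 48 genes, 41 had an entry in the promoter table and 29 of these (70.7%) carried a start tract at 1 or more of their annotated starts. The share was 73.1% for the 40S genes, 7.14% for the mitochondrial large subunit and 7.52% over all 9893 tested protein-coding genes with an entry. The 29 genes with a tract had a median log2 fold change of −0.45, with 26 lower, 11 of them past the fold threshold, and 1 higher. The 12 without it had −0.27, with 9 lower, 2 of them past the fold threshold, and 1 higher. The 2 sets were not tested against each other. RPL9, which fell, and RPL26L1, which rose, were both without the tract at their annotated first bases, and a start annotated some bases away from the real one would miss it.

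The P stalk is the flexible arm of the 60S subunit that recruits the elongation factors, and its 4 genes included the one that changed most. RPLP1, which encodes an acidic stalk protein (chr15:69452814-69456205, plus strand, hg38), was at 2797, 2458 and 2128 TPM in siCTR and 948, 975 and 951 TPM in siCEP20. Every siCEP20 library lay far below the lowest control, and 38.9% of the control level was left (log2 fold change −1.35 ± 0.09, SE, limma adjusted p = 4.77e-05). Its partner RPLP2, with which it forms the stalk dimers, was at 3514, 3459 and 3413 TPM in siCTR and 2435, 2594 and 2603 TPM in siCEP20. RPLP0, which anchors those dimers to the ribosome, was at 5395, 5263 and 5219 TPM against 3681, 3851 and 3855 TPM. Both fell without overlap, with smaller log2 fold changes of −0.45 for RPLP2 and −0.48 for RPLP0, although RPLP2 was at −0.11 (adjusted p = 0.0683) with quantile normalization. RPL12, a protein of the stalk base, was at 2968, 2949 and 2912 TPM against 2618, 2747 and 2624 TPM (log2 fold change −0.14 ± 0.04, SE, adjusted p = 0.0232), but with quantile normalization its direction turned to 0.17 (adjusted p = 0.032). The call of RPL12 was also lost without the filter on low TPM (adjusted p = 0.171), with length and GC correction (0.259), without a mean-variance trend (0.114) and when siCTR replicate 1 or 2 or siCEP20 replicate 1 or 3 was left out.

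The pair that carries the 5S ribosomal RNA into the subunit, and that binds MDM2 when it is free, was lower in both members. RPL5 was at 1191, 1160 and 1091 TPM in siCTR and at 856, 870 and 830 TPM in siCEP20 (log2 fold change −0.43, adjusted p = 0.000397). RPL11 was at 927, 906 and 954 TPM and at 777, 828 and 818 TPM (log2 fold change −0.20, adjusted p = 0.0097), a call that was lost with quantile normalization (−0.085, adjusted p = 0.131) and without a trend (0.0506). Neither overlapped between groups, and neither reached the fold threshold.

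Among the 9 genes for proteins around the catalytic centre, the tRNA sites, the L1 stalk and the bridges to the 40S subunit, 8 were lower, 2 of them past the fold threshold. RPL10, a late-joining protein beside the tRNA sites, was at 4177, 4130 and 3940 TPM in siCTR and at 2489, 2660 and 2358 TPM in siCEP20 (log2 fold change −0.71, adjusted p = 7.42e-05). RPL23 was the other, at 1573, 980 and 1513 TPM against 647, 778 and 703 TPM, with 1 low control library that still lay above the siCEP20 group (log2 fold change −0.91 ± 0.17, SE, adjusted p = 0.0033). RPL3, which reaches towards the catalytic centre, was at 2504, 2536 and 2414 TPM and at 1905, 1969 and 2080 TPM (log2 fold change −0.32). RPL41, the very short protein at a bridge between the subunits, was at 4824, 4565 and 4739 TPM and at 3344, 3560 and 3470 TPM (log2 fold change −0.45). The fold change of RPL41 was close to the family median and that of RPL3 smaller. RPL10A, RPL30, RPL24 and RPL8 were lower by between −0.54 and −0.36 on the log2 scale, although RPL8 turned to 0.097 (adjusted p = 0.186) with quantile normalization. RPL36A is described with its paralog below.

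The 9 genes of the exit tunnel wall and rim held 7 that fell and 2 that did not pass. RPL31, at the tunnel rim, was at 878, 822 and 820 TPM in siCTR and at 425, 445 and 429 TPM in siCEP20, with little scatter in either group (log2 fold change −0.95 ± 0.05, SE, adjusted p = 2.26e-05). RPL39, a small protein of the tunnel wall, was at 2207, 2070 and 1826 TPM against 1155, 1193 and 1269 TPM (log2 fold change −0.75, adjusted p = 0.000194). RPL17 had a log2 fold change of −0.67, and RPL22, RPL19, RPL35 and RPL23A lay between −0.44 and −0.27. With quantile normalization 3 of these calls were lost: RPL19 turned to 0.078 (adjusted p = 0.319), RPL35 was at −0.14 (0.0711) and RPL23A at −0.00096 (0.992). RPL4, whose long loop lines the tunnel, overlapped between groups, at 3103, 2311 and 2743 TPM in siCTR and 2515, 2720 and 2274 TPM in siCEP20 (log2 fold change −0.11, 95% interval −0.36 to 0.13, adjusted p = 0.43). RPL4 scattered so widely that its interval still holds a fall as large as that of RPL3. RPL26 overlapped with far less scatter, at 2973, 2987 and 3121 TPM and 2864, 2932 and 3056 TPM (log2 fold change −0.04, 95% interval −0.14 to 0.07). The interval of RPL26 does not reach the median change of the family, but its direction depended on the scaling, at −0.19 with median-of-ratios scaling and 0.31 with quantile normalization, both past an adjusted p of 0.05.

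The remaining proteins are spread over the body of the subunit, and of the 21 genes in that group 20 were lower and 1 was higher, with 7 past the fold threshold. RPL34 (chr4:108620569-108630412, plus strand) was at 488, 422 and 402 TPM in siCTR and 180, 205 and 191 TPM in siCEP20 (log2 fold change −1.18 ± 0.08, SE, adjusted p = 5.34e-05). RPL36 (chr19:5674947-5691875, plus strand) was at 880, 794 and 746 TPM and 393, 437 and 353 TPM (log2 fold change −1.03 ± 0.09, SE, adjusted p = 0.000108). RPL9 (chr4:39452587-39458931, minus strand) was at 612, 645 and 665 TPM and 313, 333 and 335 TPM (log2 fold change −0.97 ± 0.05, SE, adjusted p = 3.07e-05). All 3 were left at about the same part of their control level, from 43.9% for RPL34 to 51.1% for RPL9, and none overlapped between groups. MICOS13, which overlaps RPL36 on the opposite strand, was at a mean of 65.2 TPM in siCTR and 33.4 TPM in siCEP20. LONP1, also on the opposite strand, was at 137 and 117 TPM, and HSD11B1L on the same strand at 6.97 and 4.68 TPM. The part of these neighbours in the level of RPL36 was not tested. The study's methods describe a strand-marking library while the labels name a kit that is not directional, and the strand setting of the counting is not given in the sources used here, so reads of such neighbours may not have been told apart.

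The other members called lower by fold in that group were RPL35A, RPL21, RPL18 and RPL7A, with log2 fold changes from −0.84 to −0.61. RPL29, RPL38, RPL7, RPL37, RPL13, RPL14, RPL27A and RPL27 were lower by between −0.57 and −0.30, and RPL37A, RPL15, RPL32 and RPL6 by between −0.25 and −0.20. With quantile normalization RPL27 was at −0.020 (adjusted p = 0.751) and RPL37A at −0.069 (0.204). RPL13A, the most abundant transcript of the family and the source of a translational repressor once its protein leaves the ribosome, was at 6957, 6721 and 6606 TPM in siCTR and 5580, 5933 and 6051 TPM in siCEP20. Its groups did not overlap (log2 fold change −0.21, adjusted p = 0.00859), and the call was lost without the filter on low TPM (adjusted p = 0.199), with quantile normalization (0.302) and without a mean-variance trend (0.051). RPL6 (adjusted p = 0.0268) and RPL15 (0.0219) were similarly close to the threshold: the call of RPL6 was lost without siCTR replicate 1 or 2 or siCEP20 replicate 1 or 3, and that of RPL15 without siCTR replicate 2 or 3 or siCEP20 replicate 3. Quantile normalization gave −0.0072 for RPL6 (adjusted p = 0.933) and −0.055 for RPL15 (0.611). Both calls were also lost without the filter (0.131 and 0.111) and without a trend (0.087 and 0.0666), and that of RPL6 with length and GC correction (0.0575).

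RPL28 went against the family. RPL28 (chr19:55385932-55403250, plus strand), a protein with no bacterial counterpart, was at 2119, 2120 and 2230 TPM in siCTR and 2460, 2714 and 2718 TPM in siCEP20. It was higher in every siCEP20 library (log2 fold change 0.29 ± 0.05, SE, adjusted p = 0.0036), under the fold threshold. With median-of-ratios scaling the value was 0.13 (adjusted p = 0.0731) and with length and GC correction 0.11 (0.0766), so the call depends on the scale. After the median level of the 48 genes was subtracted from each library, as described below for the whole family, it was higher by 0.89 and after the mean level by 0.75. UBE2S, on the opposite strand of the same locus, was at 277 TPM in siCTR and 249 TPM in siCEP20.

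**Figure D3:**
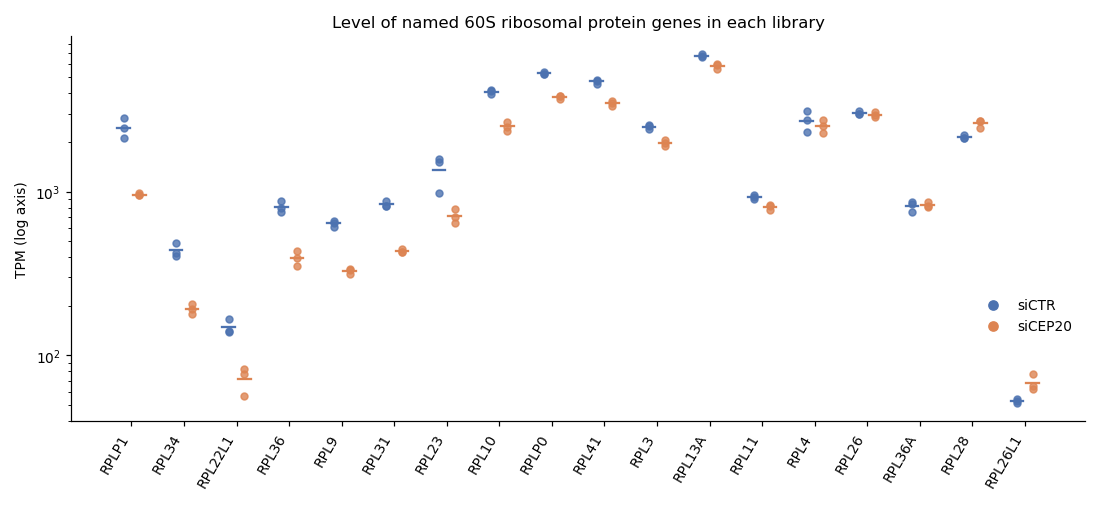
Level of named 60S genes in each of the 6 libraries, in TPM on a log axis, with siCTR in blue, siCEP20 in orange and a line at each group's mean. Genes are ordered by rising log2 fold change from RPLP1 on the left, whose siCEP20 libraries sit at 948 to 975 TPM, to RPL28 and RPL26L1 on the right, whose siCEP20 libraries lie above every control.

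A view that does not depend on the scale between libraries takes each member relative to the family itself, and it depends on how the family is centred. The median level of the 48 genes in a library shifted by −0.61 between the groups on the log2 scale, and their mean level by −0.46. The first shift is larger than the median of the 48 changes (−0.43), so that subtracting the median level counts as higher even genes such as RPLP0 and RPL41 that fell by about the median change. With the median level subtracted, 7 genes were lower than the family at an adjusted p under 0.05, 28 were higher and 13 did not pass. With the mean level subtracted, a choice made after the data were seen, 15 were lower, 19 higher and 14 did not pass. Of all tested genes 1.44% were lower and 83.7% higher relative to the median level, since the family itself fell, and 2.59% and 75.4% relative to the mean level. By both centrings 7 genes were lower (RPLP1, RPL34, RPL22L1, RPL36, RPL9, RPL31 and RPL35A) and 19 were higher. The 19 included RPL28, RPL36A, RPL26, RPL4, RPL12, RPL11, RPL13A and RPL3. Within the family the change therefore differed between genes by more than the spread between libraries, from −0.89 for RPLP1 to 0.82 for RPL26L1 relative to the mean level and from −0.75 to 0.96 relative to the median level.

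Several 60S proteins have a second gene of related sequence, and some of these copies can take the place of the common form in the ribosome. The likeness differs between pairs: the coding sequences match at 94.8% of positions for RPL39L and RPL39 but at only 59.7% for RPL7L1 and RPL7. Whether RPL7L1 stands in for RPL7 in the ribosome was not tested. The log2 ratio of copy to parent was compared in the 5 of 7 pairs in which both genes reached 1 TPM. All 5 ratios differed between the groups without overlap, and each had an exact permutation p of 0.1, adjusted over the 5 pairs also 0.1, which is the smallest that the design allows. The other pairs could not be compared, because RPL3L had a mean under 1 TPM and RPL10L was listed at 0 in all libraries.

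RPL22L1, the copy of RPL22, had the largest difference. RPL22L1 (chr3:170864875-170870208, minus strand) was at 166, 139 and 141 TPM in siCTR and at 56.5, 82.5 and 76.8 TPM in siCEP20 (log2 fold change −1.05 ± 0.14, SE, adjusted p = 0.000685), while RPL22 was at 315, 348 and 328 TPM and at 233, 258 and 238 TPM (log2 fold change −0.44). The coding sequences of the pair match at 68.7% of positions. The log2 ratio went from −0.92, −1.32 and −1.21 to −2.03, −1.63 and −1.62, a difference of −0.61, and the share of the copy in the pair from 31.0% to 22.8%.

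In 3 of the other 4 pairs the ratio of copy to parent was higher in siCEP20. RPL26L1, the least abundant of the 48 genes, was at 52.9, 54.1 and 51.1 TPM in siCTR and at 64.9, 76.6 and 62.2 TPM in siCEP20 (log2 fold change 0.35 ± 0.08, SE, adjusted p = 0.0108), although with median-of-ratios scaling the change was 0.20 (adjusted p = 0.0778). RPL26 itself did not pass the test. The log2 ratio of RPL26L1 to RPL26 was 0.39 higher, and the copy still made up only 2.25% of the pair. The antisense RNA of RPL26L1, RPL26L1-AS1, was at a mean of 5.46 TPM in siCTR and 9.07 TPM in siCEP20. RPL39L fell from 53.0, 48.1 and 47.1 TPM to 38.0, 41.2 and 40.6 TPM (log2 fold change −0.30), and its log2 ratio to RPL39 was 0.45 higher. RPL7L1 was at 85.0, 83.9 and 84.1 TPM in siCTR and at 77.4, 82.0 and 75.3 TPM in siCEP20 (log2 fold change −0.11, adjusted p = 0.161, and −0.26 with adjusted p = 0.0076 under median-of-ratios scaling), against RPL7 at 1425, 1302 and 1263 TPM and at 936, 953 and 948 TPM (log2 fold change −0.49). Its log2 ratio was 0.38 higher.

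RPL36AL and RPL36A, which encode nearly the same protein at the tRNA exit site, both missed the threshold in the main comparison. RPL36AL was at 270, 285 and 309 TPM in siCTR and 248, 269 and 263 TPM in siCEP20 (log2 fold change −0.14, adjusted p = 0.102), and it did pass with median-of-ratios scaling (−0.30, adjusted p = 0.0017) and with quantile normalization (−0.16, adjusted p = 0.0312). RPL36A was at 749, 843 and 859 TPM and at 814, 859 and 807 TPM (log2 fold change 0.02, 95% interval −0.12 to 0.16), a direction that turned to −0.14 (adjusted p = 0.0402) with median-of-ratios scaling. The log2 ratio of RPL36AL to RPL36A was 0.16 lower between group means (difference −0.16) without overlap. Of all pairs this change was the smallest, and the coding sequences match at 90% of positions. RPL36A also shares its strand with the read-through gene RPL36A-HNRNPH2, which scattered widely at 39.8, 119 and 127 TPM in siCTR and 9.89, 29.0 and 128 TPM in siCEP20, so its own level is uncertain.

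**Figure D4:**
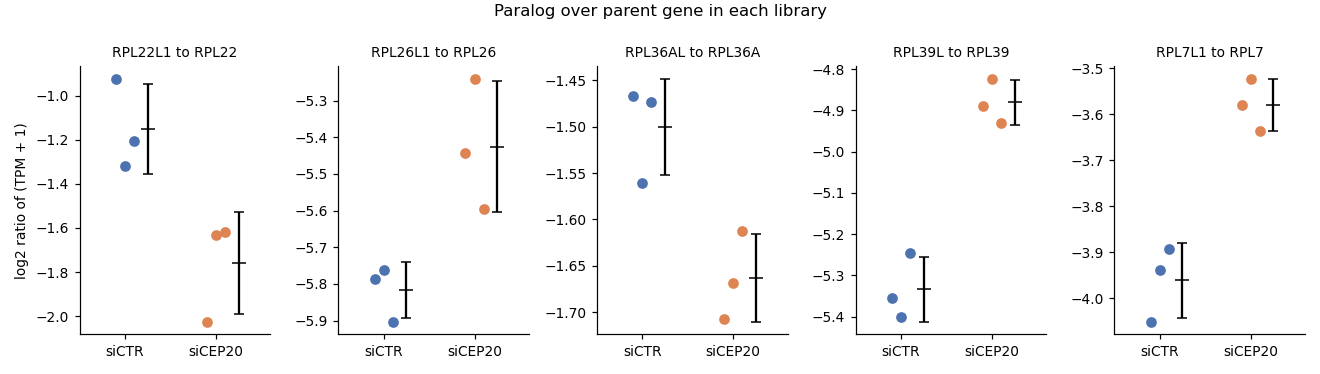
Log2 ratio of (TPM + 1) of the paralog to its parent gene in each of the 6 libraries, 1 panel a pair with its own axis, points for libraries and bars for the mean ± SD of 3. The ratio of RPL22L1 to RPL22 is 0.61 lower in siCEP20 and that of RPL36AL to RPL36A 0.16 lower, while the other panels are higher by 0.38 to 0.45.

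Processed pseudogenes can take reads from the genes they copy. The table holds 1083 pseudogene rows named after a member, of which 94 had a mean of at least 1 TPM, and these belonged to 31 of the 48 genes. Together all these rows summed to 5020, 4940 and 4810 TPM in siCTR and 3630, 3910 and 3920 TPM in siCEP20, which is 4.96% to 5.06% and 5.01% to 5.27% of the family and its pseudogenes combined. Of the 94 rows 41 were lower and 6 higher, where the shares of all tested genes are 13.2% and 30.2%. The median log2 fold change of these rows was −0.35, near that of the family. Of the 28 genes whose pseudogenes summed to a mean of at least 10 TPM, the pseudogenes moved with the same sign as the gene in 22. All of these genes but RPL36A had a negative change, so this count mainly restates how many pseudogene sums fell. The sums were lower without overlap in 18, higher without overlap in 2 and overlapping in 8. Among all tested genes, taken singly, 17% were lower and 38.4% higher without overlap.

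Most of the largest of these rows match nearly all coding bases of the gene, but RPL24P4 matches 80.3% and RPL3P4 34.7%. The match is counted over the whole coding sequence of the gene, so a shortened copy scores low even where it is alike. RPL3P4 spans only chr14:98972879-98973301, against 1209 coding bases in RPL3. RPL10P16, which matches 98.9% of the RPL10 coding bases, fell from a mean of 489 TPM to 233 TPM, or by −1.07 in log2 units. RPL9P7 matches 99.7% of the coding bases of RPL9 and had 345 TPM in siCTR and 216 TPM in siCEP20, a fall of −0.67 on the log2 scale. RPL36AP37 matches 100% of those of RPL36A, and it fell from 380 to 335 TPM (−0.18). RPL13AP5 did the opposite of its gene: it matches 99.5% of RPL13A and rose from 381 to 494 TPM (log2 fold change 0.37, adjusted p = 0.000854), while RPL13A fell. RPL24P4, with a match of 80.3%, rose from 161 to 260 TPM (log2 fold change 0.70, adjusted p = 0.00162), while RPL24 fell. How reads were divided between these rows and their genes is not given in the sources used here. When the pseudogenes were summed into their genes, again 42 members were lower and 2 higher, and the largest shifts were RPL9 from −0.97 to −0.86, RPL24 from −0.38 to −0.25 and RPL22 from −0.44 to −0.33.

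**Figure D5:**
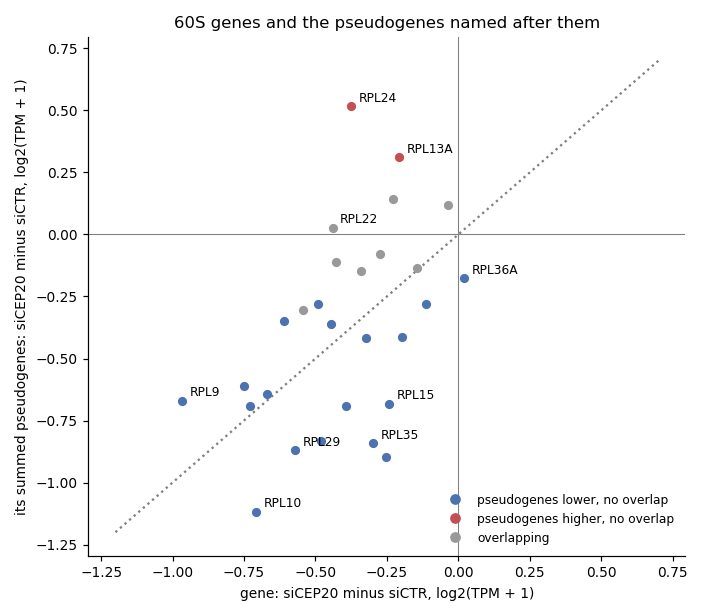
Change of each 60S gene (horizontal) against the change of the sum of pseudogenes named after it (vertical), both as siCEP20 minus siCTR in log2(TPM + 1), for the 28 genes whose pseudogenes reach a mean of 10 TPM; the dotted line marks equal change. In 22 of the 28 both moved with the same sign, where all genes but RPL36A had a negative change. The pseudogenes of RPL13A and RPL24 were higher without overlap while the genes fell.

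The length, GC content and level of the transcripts went with the size of the change only weakly. Across the 48 members the Spearman correlation with the log2 fold change was 0.09 for transcript length, 0.14 for GC content, 0.17 for coding length and 0.21 for mean TPM, which is a description over genes of the same libraries. Across all tested genes it was 0.25 for length and −0.10 for GC content, and the 60S transcripts are short, with a median of 993.5 bases against 2818 over all tested genes. With length and GC corrected for, 40 members were lower and 1 higher, with a median of −0.44. The 18 genes that host a small nucleolar RNA had a median log2 fold change of −0.44 with 17 lower, and the 30 without had −0.41 with 25 lower and 2 higher. The 28 members that overlap no other expressed gene included 27 that were lower, with a median of −0.45. The 17 with an expressed neighbour on the opposite strand included 12 lower and 2 higher, with a median of −0.33. Those with a neighbour on the same strand, 6 in number and partly the same genes, included 5 lower and 0 higher, with a median of −0.49. These sets were not tested against each other.

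The 55 factors that assemble and export the 60S subunit had 7 members lower and 19 higher, 0 and 2 of them past the fold thresholds, and a median of 0.07, which is −0.06 relative to all tested genes. The counts lower and higher are close to the shares of all tested genes, 13.2% and 30.2%. Those past the fold thresholds lie below the shares of all tested genes, 4.61% and 11.2%. With median-of-ratios scaling 15 were lower and 6 higher with a median of −0.076, so no direction of the list is given. That scaling also moved the shares of all tested genes, to 21.8% lower and 19.7% higher. The 19 higher became 11 without siCTR replicate 1, 12 without siCTR replicate 2, 10 without siCEP20 replicate 2 and 11 without siCEP20 replicate 3. EIF6, which keeps the new 60S from joining the 40S too early, was lower (354, 362 and 366 TPM against 266, 295 and 279 TPM, log2 fold change −0.37), and SBDS, which helps to release EIF6, was higher (49.7, 48.3 and 51.0 TPM against 71.9, 74.7 and 84.2 TPM, 0.62). DDX18 (−0.40) and RSL24D1 (−0.31) were also lower and SDAD1 (0.52) and MAK16 (0.76) higher, and the direction and call of these 6 genes held under each scaling tried.

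Other mRNAs known for a TOP tract were split in direction. Among the 17 of these listed, 5 were lower and 6 higher, where the shares of all tested genes are 13.2% and 30.2%. Their median was 0.09, which became −0.068 with median-of-ratios scaling. EEF1D (−0.44), NACA (−0.34) and RACK1 (−0.28), a protein of the 40S head, were lower, and PABPC1 (0.66), BTF3 (0.36) and the elongation factor EEF2 (0.28) were higher, although the call of EEF2 was lost with median-of-ratios scaling (0.13, adjusted p = 0.0674) and that of RACK1 with quantile normalization (−0.11, adjusted p = 0.0586). PABPC1 was at 621, 741 and 795 TPM in siCTR and at 1103, 1181 and 1107 TPM in siCEP20. Of the 12 genes for regulators of TOP mRNAs, 2 were lower and 5 higher, close to the 13.2% and 30.2% of all tested genes, with 2 higher when siCEP20 replicate 2 was left out and 3 when siCEP20 replicate 3 was. LARP1, which binds the TOP tract and the cap, was at 107, 118 and 124 TPM in siCTR and at 149, 155 and 147 TPM in siCEP20 (log2 fold change 0.37, adjusted p = 0.00285). Among the others LARP4 (0.54) and the S6 kinase gene RPS6KB1 (0.56) were higher, and EIF4EBP1 (−0.27) and CNBP (−0.15) were lower. The call of RPS6KB1 was lost with length and GC correction (0.33, adjusted p = 0.0558), without the filter on low TPM (0.0749) and without siCEP20 replicate 2 (0.0501), and that of CNBP without any 1 of the siCEP20 libraries or siCTR replicate 2 or 3 (adjusted p = 0.0700 to 0.112).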

How the data were processed

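Per the labels, RNA from A549 cells was prepared 3 days after transfection with siCEP20 or siCTR. As the study's methods and the submitters' processing notes give it, reads were trimmed with fastp 0.20.1, aligned to hg38 with HISAT2 2.1.0 and assembled with StringTie 2.0. The authors deposited the result as TPM for each gene and library (6 libraries, 60624 rows). TPM keeps no read depth, so depth is unknown and no counting interval is given. Symbols and coordinates came from GENCODE release 44 (60370 rows matched, 254 did not).

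Because TPM is not a count, log2(TPM + 1) was modelled for the 14778 genes whose mean reached 1 TPM, with limma 3.58.1 (R 4.3.3; eBayes with a trend, two-sided, no covariate), with Benjamini-Hochberg adjustment over all of them. A call needed an adjusted p under 0.05, and where stated a fold change over 1.5 or under 0.67. The added 1 makes the fold change of low genes too small. Sums and ratios of single libraries were compared with exact permutation tests. The fit was tested on simulated data. Confidence intervals are at 95%. Identity between a gene and its copy is the share of coding bases that match in an alignment. For pseudogenes it is taken over the whole coding sequence of the gene.

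The members follow from gene symbols, but the family and the lists were chosen with earlier results of these data known. Named with values in every library were both genes of each tested paralog pair, the 6 lowest and 4 highest members by log2 fold change, RPLP0, RPLP1, RPLP2, RPL5, RPL11, RPL3, RPL4, RPL10, RPL41, and the most and the least abundant member. Of the wider lists the 3 genes with the smallest adjusted p in each direction were named, most with the fold change alone. RPL12, RPL23 and single pseudogenes and neighbours were named after their values were seen. Alternatives were another pseudocount (0.1), no filter or a mean of at least 5 TPM, median-of-ratios scaling, quantile normalization, a length and GC correction (loess span 0.5), no trend, protein-coding genes only, pseudogenes summed in, a replicate block, each library left out, and centring by the family mean, the last added after the data were seen. Promoter windows were read from RefSeq (250 bases before to 50 after each start), and 7 members had no entry. Some genes named by the rule are not reported here.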

Additional observations from a re-analysis of the deposited data

How the results depend on the processing

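Depth is unknown from TPM, 3 libraries a group limit every exact test to p = 0.1, and the scale between libraries decides the calls of members with small changes. The 42 lower members became 31 to 45 under the alternatives that keep all libraries and 39 to 42 with 1 library left out, and the median log2 fold change was −0.45 to −0.40 with 1 left out. Median-of-ratios scaling gave 0 higher members, 25 past the fold threshold and a median of −0.59, and quantile normalization gave 4, 9 and −0.26. Length and GC correction gave 1 higher member. Leaving out 1 library gave 2 higher members and 14 to 16 past the fold threshold. Single members turned with the scale. Under quantile normalization RPL19 was at 0.078, RPL8 at 0.097, RPL12 at 0.17 and RPL26 at 0.31, and under median-of-ratios scaling RPL36A was at −0.14. Relative to the family, subtracting its mean level in place of its median level gave 15 lower members and put RPLP0 at −0.018 and RPL29 at −0.11.

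The ratio of 60S to 40S turned to −0.042 when medians replaced sums. The assembly factors had 15 lower, 6 higher and a median of −0.076 with median-of-ratios scaling, 12, 11 and −0.055 with quantile normalization, and 15, 6 and −0.044 with length and GC correction. The shares of all tested genes given above for each scaling apply to these counts too. With 1 library left out the assembly factors had 10 to 19 higher. The other TOP mRNAs had 3 higher and a median of −0.068 with median-of-ratios scaling, 2 lower and a median of 0.18 with quantile normalization, and 3 higher and −0.078 with length and GC correction. Among TOP regulators 3 were higher without the filter, with median-of-ratios scaling and with quantile normalization, 2 were higher with a median of −0.019 after length and GC correction, and 1 was lower without a trend. With 1 library left out 1 to 2 were lower and 2 to 5 higher. Apart from the mean in place of the median and the scalings themselves, the cause of these shifts was not tested.

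Same-numbered libraries of the groups did not deviate together (correlations 0.16, −0.06 and −0.06), so the numbers are not taken as pairs. With the replicate number as a block, 42 members were again lower and 2 higher, 14 of them past the fold threshold, and the exact tests could then go no lower than p = 0.25.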
